A study of Oryza sativa with 9 samples.

Results

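NB-ARC proteins are the intracellular immune receptors of plants, and their genes are described here in roots of rice (Oryza sativa). Members were the gene models whose deposited description names the NB-ARC domain in any letter case, and this rule found 225 of the 105692 models listed. RNA was measured in roots of soil-grown plants of cultivar Dongjin aged 7 days, kept in a day of 10 h light and 14 h dark. The 9 libraries comprised 3 of the wild type (WT), 3 of the line dgk1, labelled a knockout of a diacylglycerol kinase gene, and 3 of the line OE2, labelled an overexpressor of that gene. The lines are called dgk1 and OE2 below as the labels give them. Each is a single line, and neither the promoter driving the transgene nor the number of plants behind a library is given in the sources used here. The libraries of a line are described as biological repetitions.

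The NB-ARC domain is a nucleotide-binding switch that holds ADP in the resting receptor and ATP in the active one. In most plant receptors it sits in front of a stretch of leucine-rich repeats, and in rice the part before it is usually a coiled coil. These receptors recognise molecules that pathogens deliver into the cell, and many rice genes for resistance to the blast fungus and to bacterial blight encode them. The genes often lie in clusters of similar copies whose number and sequence vary between cultivars.

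The libraries held 8908397 to 12459460 fragments, of which 20663 to 34296 lay in members. Values are FPKM, fragments per kilobase of model scaled to library depth, and a level is an FPKM value throughout. The target gene went against the labels. The annotated model OS04G0634700, a diacylglycerol kinase taken here as the target, was listed at 0 in all libraries, and model 25546, which has the same span, had 0.487 to 0.896 FPKM in WT, 5.60 to 9.16 in dgk1 and 0.521 to 0.625 in OE2. The library labelled OE2 replicate 2 stood apart on the root markers. Their summed level was 1372 FPKM there against 118 to 168 in the other OE2 libraries, 98.9 to 149 in WT and 226 to 366 in dgk1. One model, OS03G0307200, gave 736 FPKM of that sum, against 83.2 and 50.3 in OE2 replicates 1 and 3. It had 49.3 to 69.6 FPKM in WT and 125 to 192 in dgk1. Without it the sums ran from 49.6 to 636 FPKM over the libraries, and the highest was again OE2 replicate 2. Every other library summed to at most 366 FPKM even with that model included. The root list matched 11 models, of which OS02G0743900, a Casparian strip protein, and a helicase matched only by its letters were at 0. Markers of green tissue, 41 models of which 9 were at 0, summed to 230 to 348 FPKM in WT, 165 to 218 in dgk1 and 237 to 339 in OE2. The part of these differences in the results below was not tested, and in bulk roots fewer cells of a type and less RNA per cell cannot be told apart.

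Members were concentrated on the last chromosomes. Chromosome 11 held 82 and chromosome 12 held 39, so that 121 of 225 (53.8%) lay on these chromosomes. Of the 69 members with an OS identifier, called annotated, 56 (81.2%) lay there, against 12.2% of all 37830 annotated models. The annotated members were all on chromosomes 3, 10, 11 and 12, since no annotated model elsewhere is described by the name NB-ARC. The 81.2% and the 53.8% therefore depend on the wording of descriptions as well as on position. The other 156 members carry a running number and a Pfam domain in place of an identifier and occur on every chromosome, with 1 on an unplaced scaffold. Of them, 65 (41.7%) lay on chromosomes 11 and 12, against 11.8% of all 13958 numbered models. Per 1000 numbered models, chromosome 11 had 59.6 numbered members and chromosome 12 had 18.6, and the other chromosomes had 2.76 to 13.5.

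**Figure D1:**
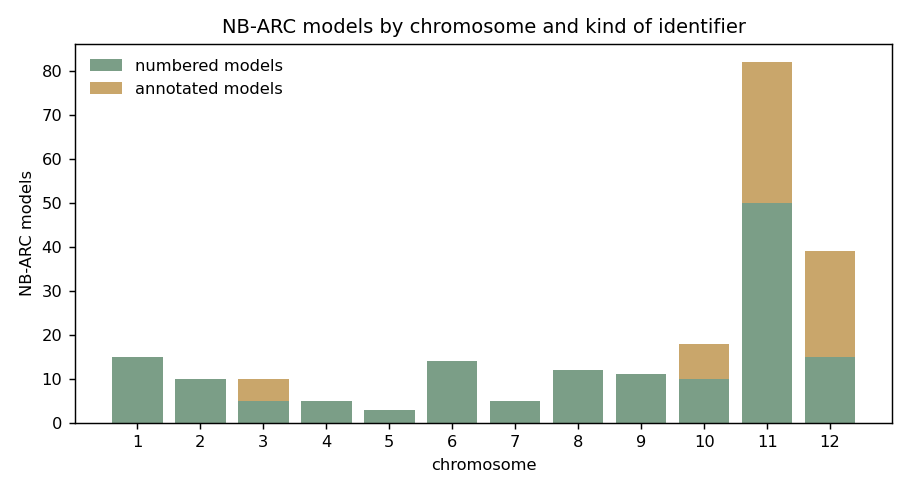
Number of NB-ARC members on each chromosome, split into annotated and numbered models. Chromosome 11 has the most, 82, followed by chromosome 12 with 39; annotated members occur on 4 chromosomes and numbered members on all.

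Many members shared ground. The 225 models formed 191 stretches that did not overlap, and 62 members shared their span with another member. Reads from near-identical copies, and from models on opposite strands where they overlap, cannot be told apart with these files, so values of such members are uncertain. Of the 26 annotated members that shared their span with a numbered model, 10 were at 0 in all libraries, as were 7 of the 43 that did not, so a listed 0 may be an unfilled estimate.

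Most members were weakly expressed. All 9 libraries listed 42 members at 0, a further 72 were above 0 but too low to test, and 111 had at least 1 FPKM in at least 3 libraries and were tested. The tested members had a median level of 3.38 FPKM over the libraries, against 4.80 for all 22383 models tested. Of the members, 10 averaged at least 10 FPKM, 20 averaged 5 to 10, and 76 averaged 1 to 5. The 8 highest together held 26.0% to 34.7% of the summed level of all members in a library.

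Model 8608 on chromosome 11 (6638306 to 6839784) was the highest. Its levels were 53.5, 38.1 and 21.9 FPKM in WT, 59.5, 60.2 and 108 in dgk1, and 58.6, 90.7 and 63.9 in OE2. Every WT library was below every library of the other lines, yet the spread was wide. The difference did not pass the test for dgk1 (log2 1.02 ± 0.35, SE; adjusted p = 0.328 in limma) or for OE2 (0.95 ± 0.35; adjusted p = 0.169). The model has a length of 3194 bases within that span. Models 8620 and 8622, also members, overlap it. Model 8616, a member, and OS11G0227800, named for resistance without NB-ARC, lie inside it, so its level is uncertain.

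The lines also separated in model 27959 on chromosome 5. It had 16.3, 14.5 and 15.2 FPKM in WT, 17.7, 18.8 and 18.8 in dgk1, and 17.8, 19.3 and 18.7 in OE2. WT overlapped neither line, and neither difference passed (log2 0.25 ± 0.09, adjusted p = 0.368 for dgk1; 0.27 ± 0.09, adjusted p = 0.156 for OE2, limma). Models 13690 (chromosome 2), 25426 (chromosome 4), 5169 (chromosome 1) and 36257 (chromosome 8) and OS03G0324600 (chromosome 3) averaged 21.7, 16.8, 13.4, 12.7 and 11.5 FPKM over the libraries, with no call in any comparison. Of the 8, the one called was OS11G0684700, described below.

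**Figure D2:**
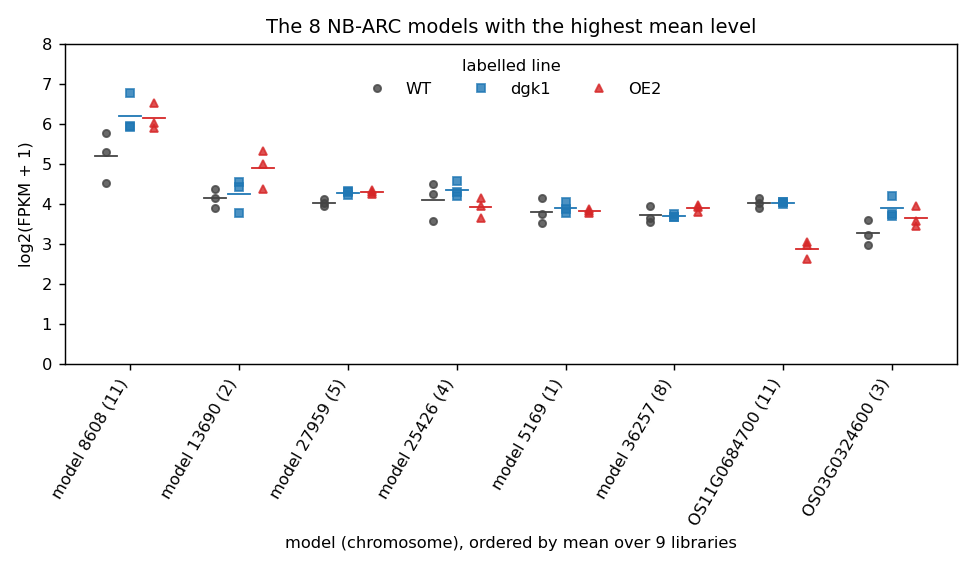
Levels of the 8 highest members in each of the 9 libraries, as log2(FPKM + 1), with points coloured by line and a bar at each line's mean. The lines overlap for most of them; OS11G0684700 lies at 5.12 to 7.29 FPKM in OE2 and at 13.9 to 16.6 in the other libraries.

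Some plant receptors carry an extra domain that resembles a pathogen's target, and 11 numbered members listed a domain besides NB-ARC. The domain was a leucine-rich repeat in 6 of them. The rest named a WRKY domain (model 10062), a NAM domain (model 10089), a thioredoxin domain (model 11474), a Jacalin-like lectin domain (model 14366) and a VQ motif (model 39169); WRKY and NAM are DNA-binding domains of transcription factors. Model 10089 on chromosome 11 was too low to test, with 0.271, 0.504 and 0.233 FPKM in WT, 0.598, 0.536 and 0.405 in dgk1 and 0.909, 0.641 and 1.15 in OE2. Its 3 OE2 libraries were the highest of the 9. Model 11474 was at 0 in all libraries.

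No member was called between dgk1 and WT in the limma fit. The count was 0 of 111, where 0.675% of all models tested passed (0.532% higher, 0.143% lower); at an unadjusted p under 0.05 there were 19, beside 11.1% of all models, and limma's voom on the recovered fragments called 1 (0.901%), beside 1.10% of all models. With a filter of 0.5 FPKM in place of 1, limma also called 1 of 135 (0.741%), OS11G0605100 (adjusted p = 0.0497), beside 0.663% of all models. Of the 111, 71 were higher and 40 lower or unchanged, since model 9615 was at 0 in all libraries of both lines. Of all models tested, 10790 were higher and 11593 lower or unchanged. The median difference over the members was log2 0.10 against -0.01 over all models. The 3 dgk1 libraries did not overlap WT for 28 members (25.2%), beside 15.5% of all models tested. No member was present in one line, at 0.5 FPKM or more in all its libraries, and at 0 in the other; the share of all models was 0.412%. The member with the lowest adjusted p was model 10021 on chromosome 11, a leucine-rich repeat receptor. It had 1.28, 0.955 and 1.15 FPKM in WT and 2.46, 2.30 and 2.44 in dgk1, a difference of log2 0.68 ± 0.14 with adjusted p = 0.105 in limma. Voom gave this member adjusted p = 0.0140.

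Between OE2 and WT members moved in both directions. Of the 111 tested members, 23 (20.7%) passed, 13 higher and 10 lower, where 6.96% of all models tested passed (3.71% higher, 3.24% lower). The median over the members was log2 0.07 against 0.01 over all models. The count was 6 of 28 annotated members (21.4%) and 17 of 83 numbered ones (20.5%), and with 1 model per locus it was 21 of 106. By level, 16 of 76 members that averaged 1 to 5 FPKM passed, against 7.49% of all models in that range, and 6 of 30 above it, against 6.02%. In all 23 the OE2 libraries lay outside the range of the 6 others, as they did in 32 of the tested members and in 12.9% of all models tested. WT and OE2 libraries did not overlap in 44 members (39.6%), beside 24.3% of all models. Without OE2 replicate 1, 2 or 3 the calls were 12, 11 and 11 (11.3%, 10.4% and 10.6% of the members tested), and the shares of all models were 3.24%, 3.61% and 3.08%. With the filter asked of 2 libraries instead of 3, an alternative chosen after the data were seen, the calls were 18, 18 and 19, beside 4.92%, 5.57% and 4.72% of all models. Of the tested members, 5 reached the filter through their OE2 libraries alone, so that a difference was built into their being tested, and 4 of them were among the 23: OS12G0204600 and models 9615, 30611 and 9505. Leaving out models of this kind, 19 of 106 members passed (17.9%) and 5.56% of all models; the 4 are given below as values with no p.

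The largest difference was in OS12G0204600, a receptor gene on chromosome 12 (5469046 to 5471369). Its levels were 0, 0.285 and 0.0309 FPKM in WT, 0, 0.0390 and 0.0347 in dgk1, and 20.0, 26.9 and 15.9 in OE2. It went from near absence to one of the higher levels among members, a difference of log2 4.29 ± 0.20 (SE) against WT. Model 9615 on chromosome 11 (22336900 to 22356674) was at 0 in every WT and dgk1 library, and OE2 had 4.82, 5.41 and 4.55 FPKM. Both genes reached the filter through OE2 alone.

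Others rose from a level already detected. Model 11375 on chromosome 12 (9988649 to 9996500) had 1.27, 2.30 and 0.967 FPKM in WT, 1.05, 1.30 and 2.32 in dgk1 and 10.0, 10.4 and 12.1 in OE2. Model 11039 on chromosome 12 (5740543 to 5752161) had 1.23, 0.671 and 0.900 FPKM in WT, 1.15, 1.37 and 1.73 in dgk1 and 7.67, 8.90 and 7.12 in OE2. The OE2 libraries of both lay above all 6 others by a wide margin, with log2 2.27 ± 0.24 (adjusted p = 0.000462) and 2.21 ± 0.16 (adjusted p = 4.48e-05, limma). Model 9620 on chromosome 11 (22449546 to 22458547) had 4.02, 4.49 and 2.59 FPKM in WT, 4.45, 4.35 and 3.85 in dgk1 and 16.3, 15.6 and 19.2 in OE2 (log2 1.96 ± 0.17; adjusted p = 0.000153). Model 30611 on chromosome 6 (10381923 to 10412837), the longest member at 10816 bases, had 0.361, 0.280 and 0.358 FPKM in WT, 0.230, 0.276 and 0.268 in dgk1 and 4.32, 2.61 and 4.09 in OE2, a difference of log2 1.79 ± 0.18. It too reached the filter through OE2 alone.

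The other 7 that rose were chosen for naming after their values were seen. OS11G0249000 had 5.49, 8.51 and 3.26 FPKM in WT, 6.16, 7.54 and 10.5 in dgk1 and 15.0, 17.7 and 17.1 in OE2 (log2 1.46 ± 0.29; adjusted p = 0.0177). Its call was lost without any 1 OE2 library or WT replicate 1. Model 9505 (chromosome 11), model 12814 (chromosome 2), model 36256 (chromosome 8), model 10024 (chromosome 11), model 40176 (chromosome 9) and OS11G0265900 (chromosome 11) differed by log2 1.37, 1.12, 0.93, 0.69, 0.67 and 0.63. Model 9505 reached the filter through OE2 alone. The calls of model 36256, model 40176 and OS11G0265900 were lost without any 1 OE2 library and with the replicate block; the first was also lost without WT replicate 2 and the second without any 1 WT library. In model 12814 dgk1 also lay above WT, at 8.13, 12.9 and 11.8 FPKM against 5.24, 6.18 and 7.37, with OE2 at 15.4, 14.9 and 13.9. The dgk1 difference there did not pass (log2 0.71 ± 0.18; adjusted p = 0.182, limma).

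Among the falls, 3 members were at 0 in all OE2 libraries. Model 39122 on chromosome 9 (11540551 to 11556537) had 12.1, 6.95 and 8.16 FPKM in WT, 9.23, 5.40 and 6.68 in dgk1 and 0 in OE2. Model 10043 on chromosome 11 (27313809 to 27322040) had 5.83, 5.94 and 6.38 FPKM in WT and 8.76, 9.67 and 6.40 in dgk1, and OS11G0237600 (7342094 to 7345975) had 4.55, 4.38 and 3.08 in WT and 3.23, 3.34 and 4.25 in dgk1. All 3 were above 3 FPKM in every library of the other lines, and their fitted differences were log2 -3.30 ± 0.23 (adjusted p = 2.72e-05), -2.82 ± 0.15 (adjusted p = 6.83e-06) and -2.31 ± 0.16 (adjusted p = 2.95e-05, limma).

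The next falls left a low level behind. Model 11835 on chromosome 12, listed without a strand, had 3.90, 1.23 and 2.93 FPKM in WT, 1.26, 0.734 and 1.37 in dgk1 and 0.249, 0 and 0.213 in OE2 (log2 -1.61 ± 0.29; adjusted p = 0.0111). Its call was lost without WT replicate 3, OE2 replicate 2 or OE2 replicate 3. OS12G0281600 on chromosome 12 (10624037 to 10635373) had 2.58, 2.85 and 4.41 FPKM in WT, 3.26, 3.70 and 3.68 in dgk1 and 0.471, 0.470 and 0.456 in OE2 (log2 -1.52 ± 0.17; adjusted p = 0.000640). Model 9719 on chromosome 11 (23419772 to 23421810) had 2.53, 1.72 and 2.99 FPKM in WT, 2.37, 2.58 and 2.25 in dgk1 and 0.251, 0.159 and 0.155 in OE2 (log2 -1.50 ± 0.16; adjusted p = 0.000564). In both, WT and dgk1 overlapped and OE2 stood well below.

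OS11G0684700 on chromosome 11 (27703769 to 27707310) fell from a high level without vanishing. It had 16.6, 15.4 and 13.9 FPKM in WT, 14.8, 15.5 and 15.4 in dgk1 and 6.82, 7.29 and 5.12 in OE2, a difference of log2 -1.14 ± 0.14 (adjusted p = 0.00101, limma). It lies inside the span of model 10062, the member with a WRKY domain, which fell by less (log2 -0.54 ± 0.13; adjusted p = 0.0441) and lost its call when any single library of WT or OE2 was left out. Models 10050 and 10021 make up the 10 and are described with their neighbours.

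**Figure D3:**
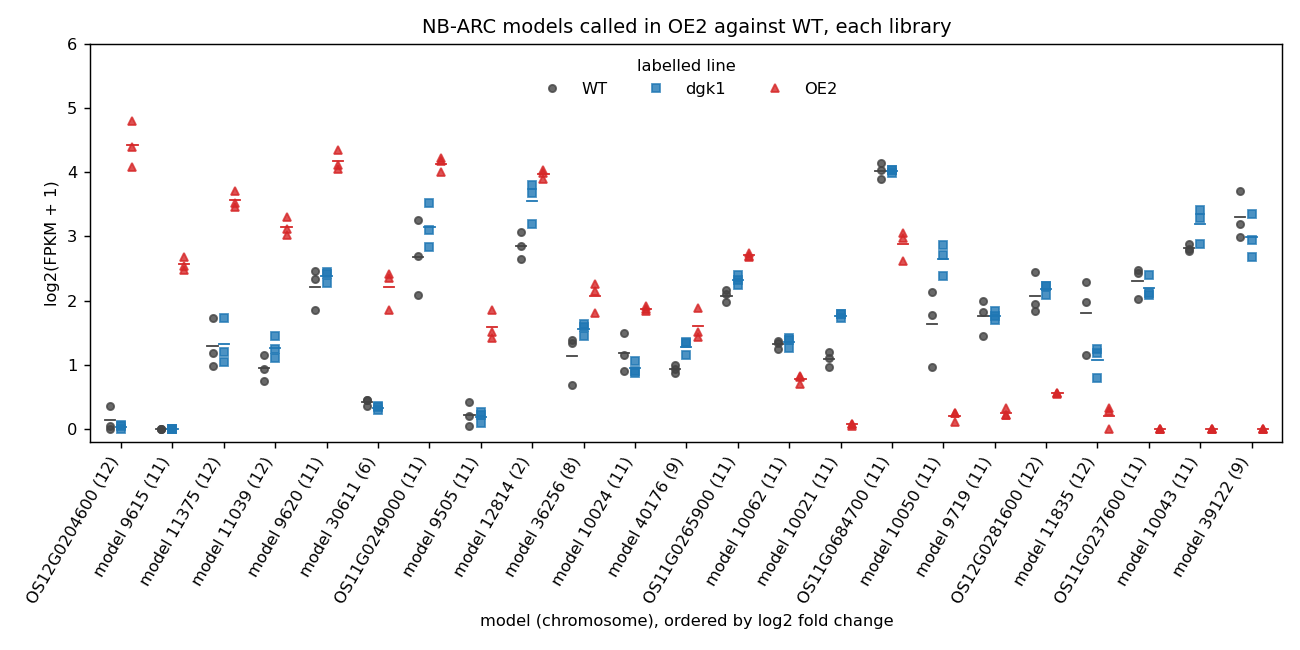
Levels of the 23 members called between OE2 and WT in each library, as log2(FPKM + 1), with members ordered by their difference. In each member the OE2 points lie beyond all WT and dgk1 points, from OS12G0204600 at the largest rise to model 39122 at the largest fall.

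Presence against absence separated OE2 from WT in 6 of the 124 members present in either line (4.84%), where 2.47% of all models did. Model 39122, model 10043, OS11G0237600 and OS11G0605100 were present in WT and at 0 in OE2, and model 9615 and OS11G0704100 the reverse. With 3 fragments over the line as the limit that a count of 0 allows, levels were at least 295-fold higher in WT for model 39122 (1032 fragments), 353-fold for model 10043 (1235) and 121-fold for OS11G0237600 (423). Model 9615, with 489 fragments, was at least 190-fold higher in OE2. These limits cover counting error only.

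The remaining members of this kind were too low to test. OS11G0605100 had 0.866, 1.35 and 1.71 FPKM in WT, 0.181, 0.263 and 0.234 in dgk1 and 0 in OE2, and was at least 44.9-fold higher in WT than in OE2. The dgk1 libraries lay between the other lines without overlap. OS11G0704100 was at 0 in WT, had a single fragment in dgk1 and 0.841, 1.02 and 0.801 FPKM in OE2, at least 33.4-fold above WT. Of the 6, 5 were on chromosome 11, out of 64 present members on chromosomes 11 and 12 (7.81%), and 1 was among the 60 elsewhere (1.67%). The same shares over all models by chromosome were not counted, so the split cannot be called particular to members.

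By chromosome, the called members were not evenly spread. Between OE2 and WT, 13 of 37 tested members passed on chromosome 11 (35.1%), 5 of 18 on chromosome 12 (27.8%) and 5 of 56 on the others (8.93%). These counts include models 9615 and 9505 (chromosome 11), OS12G0204600 (chromosome 12) and model 30611 (chromosome 6). Those members reached the filter through OE2 alone, and shares by chromosome without them were not computed. Together chromosomes 11 and 12 gave 18 of 55 (32.7%), 9 higher and 9 lower. Among numbered members alone the shares were 12 of 33 (36.4%) and 5 of 50 (10.0%). Without OE2 replicate 1, 2 or 3 the share was 19.2%, 17.3% and 17.6% on chromosomes 11 and 12, and 3.70%, 3.70% and 3.77% on the others.

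Other genes on these chromosomes were also called more often. Among models that were not members, 224 of 1265 passed on chromosome 11 (17.7%), 166 of 1221 on chromosome 12 (13.6%) and 1144 of 19786 elsewhere (5.78%). On chromosome 11 the share was 23.8% within 100 kb of a member (85 of 357) and 15.3% farther away (139 of 908). On chromosome 12 it was 12.9% (26 of 202) and 13.7% (140 of 1019), and elsewhere 45 of 1000 and 5.85% (1099 of 18786). Within 100 kb of a called member, 48 of 191 other models passed (25.1%). These shares are descriptions with no test, and neighbouring models are not independent.

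**Figure D4:**
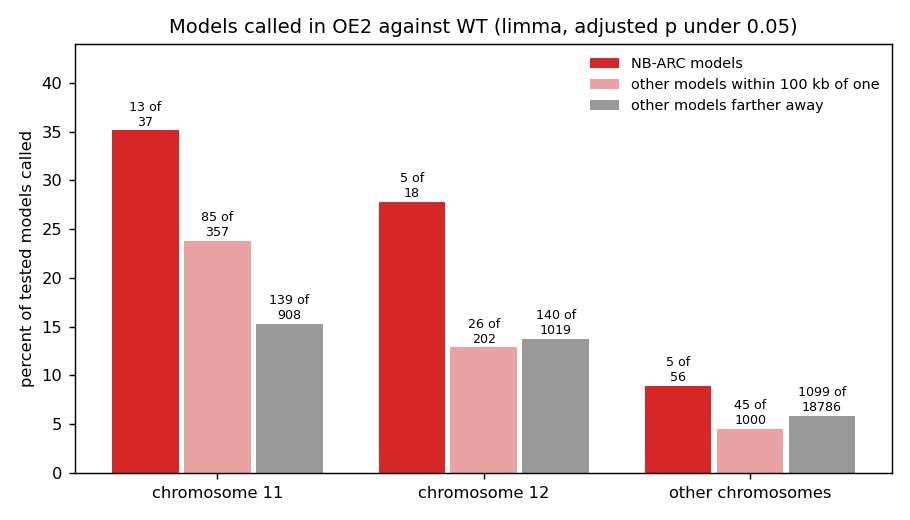
Percent of tested models called between OE2 and WT on chromosome 11, on chromosome 12 and on the others, for members, for other models within 100 kb of a member and for other models farther away. Bars start at 0. Members reach 35.1% on chromosome 11, 27.8% on chromosome 12 and 8.93% elsewhere, with those that reached the filter through OE2 alone included.

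One stretch of chromosome 11, 27240939 to 27793743, held 6 of the called members among 8 tested members that overlap it; its bounds are those of called members, picked out after the values were seen. The first, model 10021, lies inside the span of model 10015, a member that was not called (log2 -0.60 ± 0.22; adjusted p = 0.171, limma), so their reads may be shared. Model 10021 had 1.28, 0.955 and 1.15 FPKM in WT, 2.46, 2.30 and 2.44 in dgk1 and 0.0559, 0.0296 and 0.0573 in OE2. Model 10050 had 0.953, 3.38 and 2.44 FPKM in WT, 5.51, 6.30 and 4.22 in dgk1 and 0.180, 0.191 and 0.0794 in OE2. In both the order of the lines was dgk1, WT, OE2 with no overlap, and OE2 was lower than WT by log2 -1.02 ± 0.14 (adjusted p = 0.00256) and -1.43 ± 0.28 (adjusted p = 0.0171, limma). The second call was lost without any 1 OE2 library or WT replicate 3.

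In the same stretch, model 10043, model 10062 and OS11G0684700 fell and model 10024 rose, from 1.81, 0.873 and 1.23 FPKM in WT to 2.76, 2.66 and 2.55 in OE2 (log2 0.69 ± 0.17; adjusted p = 0.0446). That rise was lost without any OE2 library, WT replicate 2 or WT replicate 3. Of the 16 other tested models that overlap the stretch, 7 were called, 3 higher and 4 lower. Models 10020, 10027 and 10028, which have no description, overlap several of these members, so their reads may be shared. OS11G0676800, a member whose span ends 3220 bases from that of model 10050, was not called, at 1.97, 4.08 and 2.95 FPKM in WT and 4.10, 4.39 and 3.61 in OE2.

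Shorter runs were found elsewhere, their bounds again those of called members, picked out after the values were seen. Model 9615 and OS12G0204600 reached the filter through OE2 alone, so that a difference was built into their being tested. Models 9615 and 9620 on chromosome 11 both rose within 122 kb, where neither of the 2 other tested models was called; reaching 100 kb past these bounds, 6 of 15 other models were called, all higher. OS12G0204600 and model 11039 on chromosome 12 both rose within 283 kb, where 4 of 12 other models were called, all higher. Reaching 100 kb past those bounds, 8 of 24 other models were called, 7 of them higher. Of 41 pairs of members that lie within 10 kb of each other without overlapping, 7 had both partners tested, and no pair had both called. Overlapping members were left out of these pairs. OS11G0684700 and model 10062, which overlap, were both called.

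OE2 against dgk1 shares its OE2 libraries with the comparison above, so the values are set side by side and are no second support. Here 19 of 111 members passed (17.1%), 9 higher and 10 lower, where 6.36% of all models tested passed (3.2% higher, 3.15% lower). Among the 9 were OS12G0204600 and models 9615, 9505 and 30611, which reached the filter through OE2 alone. A difference was thus built into their being tested, and the share without models of this kind was not computed here. Without OE2 replicate 1, 2 or 3 the calls were 11, 12 and 11, beside 2.99%, 3.43% and 2.78% of all models. The share was 12 of 37 on chromosome 11 (32.4%), 5 of 18 on chromosome 12 (27.8%) and 2 of 56 elsewhere (3.57%). Among models that were not members it was 16.8% on chromosome 11, 12.5% on chromosome 12 and 5.25% elsewhere. Within 100 kb of a member on chromosome 11 it was 23.8%. The libraries did not overlap in 51 members (45.9%), beside 26.7% of all models, and 4 of 128 were present in one line and at 0 in the other, beside 2.46%. OS12G0204600 again had the largest difference, log2 4.39 ± 0.20. Model 10043 was the largest fall at log2 -3.20 ± 0.15 (adjusted p = 2.98e-06), where it was -2.82 against WT. Model 10050 was lower by log2 -2.45 ± 0.28 (adjusted p = 0.000754) and model 10021 by -1.70 ± 0.14 (adjusted p = 0.000106).

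The members passing between OE2 and dgk1 but not between OE2 and WT were OS12G0237900 and OS11G0237900. OS12G0237900 on chromosome 12 had 1.81, 1.81 and 3.12 FPKM in WT, 1.20, 1.46 and 0.971 in dgk1 and 4.14, 2.74 and 5.71 in OE2. OE2 was above dgk1 by log2 1.20 ± 0.24 (adjusted p = 0.0208, limma), and against WT the value was 0.66 (adjusted p = 0.169). The call was lost without OE2 replicate 1 or 3, or dgk1 replicate 1 or 3. OS11G0237900, a neighbour of OS11G0237600, had 0.617, 1.08 and 0.925 FPKM in WT, 0.781, 1.10 and 1.21 in dgk1 and 0.183, 0.0777 and 0 in OE2. It was lower than dgk1 by log2 -0.90 ± 0.20 (adjusted p = 0.0304), and against WT the value was -0.78 (adjusted p = 0.0531). This call was lost without any 1 OE2 library, without dgk1 replicate 1 and with the replicate block.

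**Figure D5:**
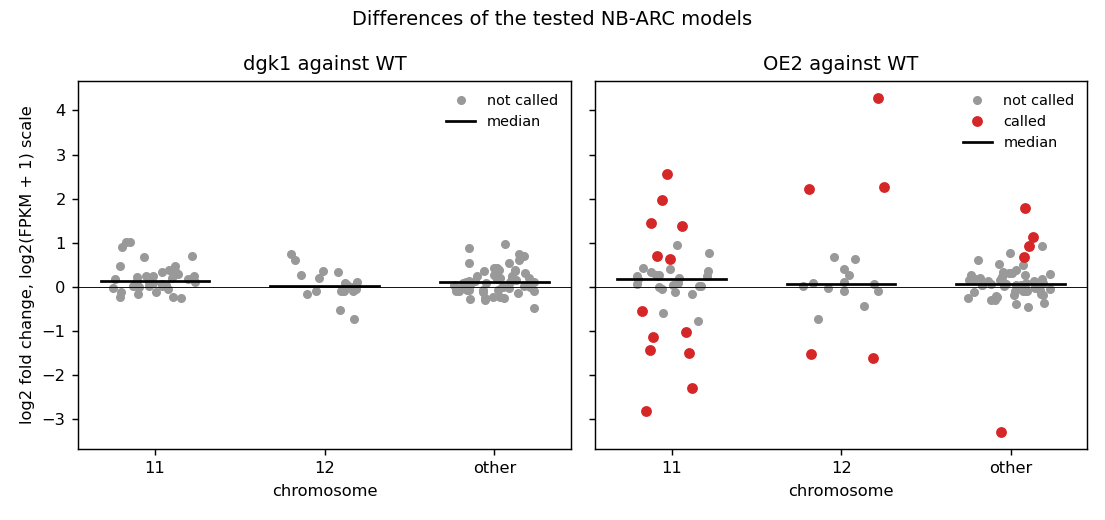
Log2 differences of the 111 tested members between dgk1 and WT and between OE2 and WT, by chromosome, with called members marked. The dgk1 differences run from -0.74 to 1.02 with none called; the OE2 differences run from -3.30 to 4.29.

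The summed level of all members was 532, 463 and 451 FPKM in WT, 540, 563 and 633 in dgk1 and 570, 648 and 578 in OE2. WT lay below both lines, and model 8608 made up part of the gap. Without it the sums were 424 to 478 in WT, 480 to 525 in dgk1 and 511 to 557 in OE2. On chromosome 12 the sum was 59.1 ± 8.99 (SD, n = 3) in WT, 62.1 ± 6.21 in dgk1 and 91.9 ± 10.7 in OE2, of which OS12G0204600 alone gave 20.9 in OE2.

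No model matched by a list of names of known partners of these receptors passed in limma. The list of partners matched 40 models, 11 of them at 0, and 19 were tested with 0 calls in each comparison. The shares of all models called were 0.675% (dgk1 against WT), 6.96% (OE2 against WT) and 6.36% (OE2 against dgk1). With so few models tested, 0 calls cannot be told apart from these shares. At an unadjusted p under 0.05 there were 0 between dgk1 and WT, 3 between OE2 and WT and 2 between OE2 and dgk1. The shares of all models were 11.1%, 20.6% and 18.7%. In the same order voom called 0, 0 and 2, beside 1.10%, 7.57% and 7.22% of all models. The median difference was log2 -0.03, 0.04 and 0.20. Both models matched by RAR1, a co-chaperone of receptor folding, or its CHORD domain were too low to test, and no description matched SGT1, EDS1 or RIN4. Most of the models matched by the chaperone HSP90 carry only its ATPase fold, which histidine kinases share. The group for NDR1 and HIN1 also took in models described by an NHL repeat, matched by letters alone. OS02G0743200 and OS06G0269300 were tested models of this kind. The counts and medians are therefore those of the matched list and not of partners alone. Among 7 tested models named for resistance without NB-ARC, OS05G0365300, named for bacterial blight resistance and singled out after its values were seen, was the one called. It had 0.468, 0.366 and 0.658 FPKM in WT, 0.412, 0.443 and 0.575 in dgk1 and 2.23, 2.69 and 2.01 in OE2, and so reached the filter through OE2 alone.

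Leucine-rich repeat models that are not members were counted in the same way between OE2 and WT. Of 31 tested without a kinase, 2 rose and 4 fell (19.4%), with 4 of 16 on chromosomes 11 and 12 and 2 of 15 elsewhere (13.3%). Of 40 tested receptor kinases, 4 rose and 2 fell (15.0%), with 3 of 6 on chromosomes 11 and 12 and 3 of 34 elsewhere (8.82%). The share of all models tested was 6.96%. Over all models that are not NB-ARC members it was 17.7% on chromosome 11, 13.6% on chromosome 12 and 5.78% elsewhere.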

How the data were processed

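Total RNA from 9 rice root libraries was sequenced on an Illumina platform, per the labels' protocols. The submitters' processing notes list CASAVA 1.8 and HISAT2. No source used here gives the counting tool, the build or the annotation, and coordinates are those of the files. The values the authors deposited are FPKM, read as such from the values and the length column. Multiplied by length, 100% of values fell on whole steps within 0.01, which gave back fragments and depth (8908397 to 12459460), and the deposited values carry a scaling between libraries. Whether counting used strand is not stated.

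From these files limma 3.58.1 (R 4.3.3, statmod 1.5.0; intensity trend, robust variance) was fitted to log2(FPKM + 1) over the 22383 models that reached 1 FPKM in 3 or more of 9 libraries, all lines together, with no covariates. A pseudocount of 1 understates the change of low genes. Calls are two-sided Benjamini-Hochberg adjusted p under 0.05 over all models tested. The fit was tested on simulated data. Members and lists were chosen with earlier results of these data known. Named members are the 6 largest rises and falls per comparison, the 8 highest levels, the present or absent members, and called partners or tandem pairs; others are said to be chosen later. No gene of the members matched the RefSeq gene table, and no sequence is shown. Alternatives were other filters, pseudocounts, voom, a fold threshold, 1 model per locus, a replicate block and leaving out each library.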

Additional observations from a re-analysis of the deposited data

How the results depend on the processing

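For dgk1 against WT, 0 members were called except 1 with a filter of 0.5 FPKM (OS11G0605100, adjusted p = 0.0497 in limma) and 1 with voom (model 10021). For OE2 against WT, 23 called members became 9 of 35 with a filter of 5 FPKM, 11 with a fold threshold of 1.5, and 11 to 20 with 1 library left out; without OE2 replicate 1, 2 or 3 the counts were 12, 11 and 11. The share called on chromosomes 11 and 12, 32.7%, became 50.0% with the 5 FPKM filter, and 17.3% to 29.6% with 1 library left out (19.2%, 17.3% and 17.6% without OE2 replicate 1, 2 or 3). Leaving out an OE2 library also drops 4 called members (OS12G0204600, models 9505, 9615 and 30611) from testing, since the filter needs 3 libraries. With a filter in at least 2 libraries, an alternative chosen after seeing the data, the counts were 18, 18 and 19. For OE2 against dgk1, 19 became 7 of 35 with the 5 FPKM filter and 11 to 17 with 1 library left out (11, 12 and 11 without OE2 replicate 1, 2 or 3). Of the 23 calls against WT, 11 held in every alternative that tested them, as did 13 of the 19 against dgk1. No named member reversed.

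Same-numbered libraries did not deviate together (correlations -0.161 to 0.0636), so the numbers are not taken as pairs. With the replicate block, 0 members were called between dgk1 and WT, 18 between OE2 and WT and 17 between OE2 and dgk1. A member listed at 0 may be below detection at this depth or an unfilled estimate.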
